A study of Argopecten irradians irradians with 6 samples.

Results

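Bantam, miR-92, miR-29 and miR-31 are 4 families of microRNAs (miRNAs, short RNAs that pair with messenger RNAs and lower their output) known from studies of growth, cell survival and tissue structure. They were followed here through small-RNA libraries of the adductor muscle, the shell-closing muscle, of the bay scallop Argopecten irradians irradians. Members were chosen by name alone: every entry of the count table whose name, after the species prefix, is one of these 4, with any letter, copy or arm suffix. This gave 384 of 5446 names. Names with identical counts in all 6 libraries were merged, which left 92 of 1005 distinct count profiles above 0. The 4 families stood among 491 families with any count, of which 137 were named and 354 were single predicted miRNAs, each taken as a family. Families were not merged by their counts, so some predicted ones repeat the same counts.

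The libraries were 3 of the white muscle of Bohai Red scallops and 3 of the orange muscle of QN Orange scallops. Of the 9 muscles preserved per strain, each library pooled 3. Strain and muscle colour changed together, so they cannot be told apart, and p-values measure the spread between pools. In the table the columns carry only the letters B and G with a number; B was read as white and G as orange, an inference on which every direction below rests. How large a difference is does not.

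Bantam was found in Drosophila, where it promotes tissue growth and represses the cell death gene hid, and where the growth-controlling Hippo pathway acts on it. miR-92 belongs to an ancient family that in vertebrates is transcribed with miR-17 and its neighbours, a cluster that promotes cell proliferation. miR-29 in vertebrates represses collagens and other genes of the extracellular matrix, and miR-31 in mice restrains Myf5 in resting muscle stem cells. An animal miRNA recognises its targets mainly through its seed, a short run of bases near its 5′ end, so families with a common seed are treated as relatives.

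Levels are counts per 1000000 (CPM) of the counts summed over 1 entry per family, the most abundant one, with TMM scaling between libraries. Those sums were 2092825 to 4001516 per library. A count of 3, taken as the floor, corresponded to 0.75 to 1.43 CPM before scaling. The labelled tissue fitted its defining miRNAs: miR-1, miR-133 and miR-206 together reached 350041 to 509753 CPM in white and 293655 to 520769 CPM in orange muscle, nearly all of it miR-1 and miR-133. In these bulk pools, fewer cells of a type and less RNA per cell cannot be told apart.

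Bantam was the most abundant of the 4, at rank 14 of 491 families by its mean level, followed by miR-92 at rank 21, miR-29 at rank 48 and miR-31 at rank 62. Their mean levels over the 6 libraries were 3787, 1845, 152 and 49.9 CPM. Mature miRNAs are of nearly equal length, so these levels were compared without a length term. They are levels of counts under names from other species. How fully a name captures the scallop miRNA could not be checked without sequences. In white muscle no 2 neighbours in this order overlapped between libraries. In orange muscle bantam overlapped with miR-92, and miR-29 overlapped with miR-31, while miR-92 and miR-29 stayed apart.

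**Figure D1:**
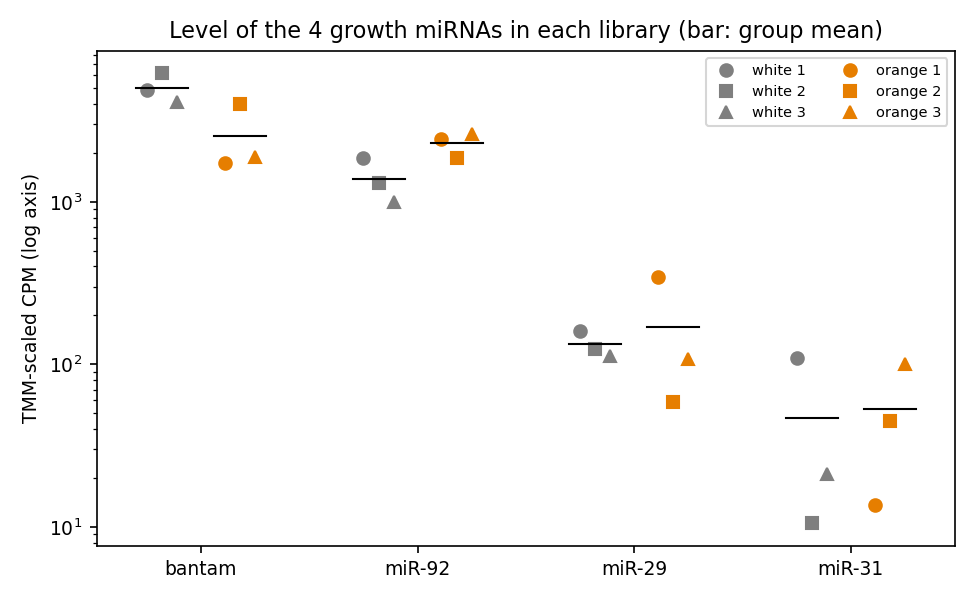
Level of bantam, miR-92, miR-29 and miR-31 in each library, in TMM-scaled CPM on a log axis, with grey symbols for white and orange symbols for orange muscle and a bar at each group mean (n = 3). Bantam lay between 4082 and 6174 CPM in white and between 1735 and 4007 CPM in orange muscle, and the other 3 families had overlapping groups.

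Counts under bantam rested almost wholly on 1 name. mle-bantam-3p, named from the sea slug Melibe leonina, had 77826 counts over the 6 libraries, and the next profile, cte-bantam of the annelid Capitella teleta, had 237. All 23 bantam names had counts, in 7 profiles, and mle-bantam-3p made up 99.4% of the sum over these profiles. miR-92 was spread the other way, with 166 names from 97 species prefixes in 54 profiles above 0. Its leading entry, lgi-miR-92 of the limpet Lottia gigantea, had 39214 counts, and the next, cte-miR-92c, had 39147, so both names very largely repeat one set of counts. miR-29 had 127 names in 18 profiles above 0, led by cte-miR-29a with 3508 counts, and miR-31 had 68 names in 13 profiles above 0, led by cte-miR-31 with 1133.

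**Figure D2:**
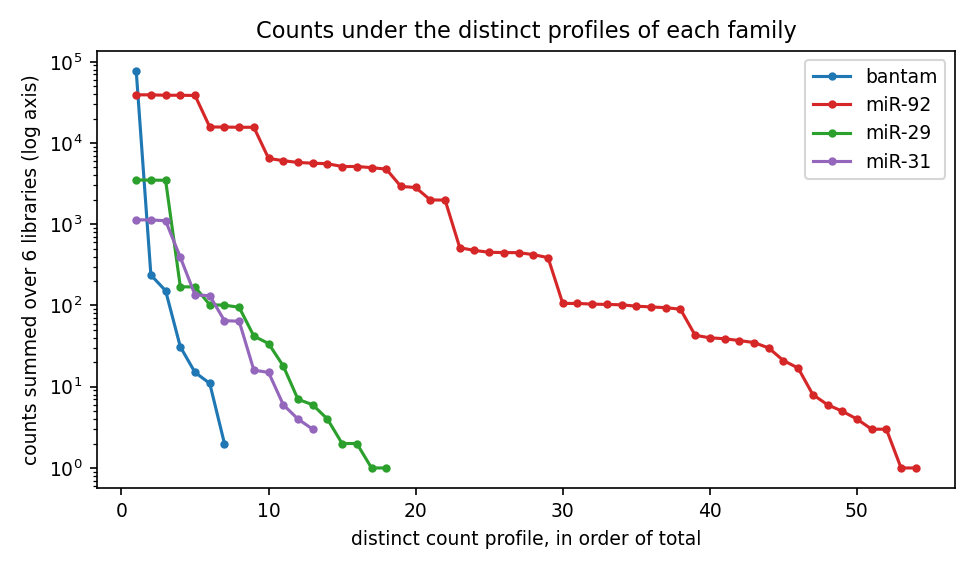
Counts summed over the 6 libraries for each distinct count profile above 0 of the 4 families, in order of size, on a log axis. Bantam drops from 77826 to 237 counts after its first profile, while miR-92 descends in steps over 54 profiles.

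Both bantam and miR-92 were counted under 3p names or under names with no arm: 11 and 75 names ended in 3p, 12 and 91 gave no arm, and no 5p name of either was analysed here. miR-31 had 34 names ending in 5p and 34 with no arm. Only miR-29 had names for both arms. Its most abundant 3p name, mle-miR-29a-3p, had 3479 counts, and its only 5p name, bfl-miR-29b-5p, had 18, with 1 to 5 in each library. Bantam and miR-92 had no 5p name and miR-31 no 3p name among those analysed, so their names cannot tell which arm was more abundant. For miR-29 the counts lay on 3p, set against its only 5p name, which has the letter b.

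Bantam was lower in every orange library than in every white one, but the difference did not pass the test across all families. White replicates 1 to 3 had 24464, 19312 and 13705 bantam counts, and orange replicates 1 to 3 had 7338, 6470 and 6537. On the CPM scale the white libraries stood at 4843, 6174 and 4082 and the orange libraries at 1735, 4007 and 1883. The groups did not overlap, yet by a narrow margin on this scale, since orange replicate 2 lay just under white replicate 3. By library totals in place of TMM these 2 libraries stood further apart, at 3092 and 4327 CPM. Groups also did not overlap in 35.2% of the 142 families tested, so this alone does not set bantam apart.

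The mean of bantam was 5033 ± 1059 CPM in white and 2542 ± 1271 CPM in orange muscle (SD, n = 3 each), 1.98-fold higher in white. The log2 difference, orange minus white, was -0.99 (SE 0.395, 95% interval -1.90 to -0.07, adjusted p = 0.160, edgeR quasi-likelihood test). The median family stood at 0.20, so relative to it the difference was -1.19. Without orange replicate 2 the log2 difference was -1.42 and passed (adjusted p = 0.0466). The call also depended on scaling and test, since bantam passed with library totals in place of TMM (-1.24, adjusted p = 0.0389), with no filter on low counts (-1.23, adjusted p = 0.00238) and by the DESeq2 Wald test (-1.29, adjusted p = 0.00947), while its sign was negative in all 16 other settings.

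miR-92 stood higher on average in orange muscle, with overlapping groups. Its counts were 9393, 4102 and 3337 in white and 10360, 3001 and 9021 in orange replicates 1 to 3. The corresponding levels were 1859, 1311 and 994 CPM in white and 2449, 1859 and 2598 CPM in orange muscle. White replicate 1 was the highest white library and lay level with orange replicate 2, the lowest orange one. By library totals in place of TMM the overlap was wide, with white replicate 1 at 2347 CPM and orange replicate 2 at 1434 CPM. On the TMM scale it was so slight that it depended on the name. Under tca-miR-92b-3p, which repeats nearly all of these counts, white stood at 981 to 1824 CPM and orange at 1845 to 2565 CPM. Such groups without overlap were found in 33.6% of all profiles tested.

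The means of miR-92 were 1388 ± 438 CPM in white and 2302 ± 391 CPM in orange muscle (SD, n = 3 each). The log2 difference was 0.73 (SE 0.360, 95% interval -0.11 to 1.57, adjusted p = 0.233, edgeR), which is 0.53 above the median family. The sign held in all 16 other settings, and miR-92 passed in none of them, from 0.09 with upper-quartile factors to 0.95 without white replicate 1. The white library that stood high also had the highest sum of epithelial and sensory miRNAs (miR-8, miR-183, miR-96, miR-263, miR-200 and miR-141). Their summed level was 7513 CPM there, with 0 counts of miR-200 and miR-141, which had at most 5 counts in any library. White replicates 2 and 3 had 1583 and 1459 CPM, and orange muscle had 2533 to 4810 CPM. Their part in the level of miR-92 was not tested.

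miR-29 showed no difference beyond its spread. Its counts were 805, 391 and 380 in white and 1463, 95 and 374 in orange replicates 1 to 3. At 159, 125 and 113 CPM the white libraries lay close together, whereas the orange libraries ran from 58.8 CPM in replicate 2 through 108 CPM in replicate 3 to 346 CPM in replicate 1, on either side of the white range. The log2 difference was 0.37 (SE 0.700, 95% interval -1.26 to 1.99, adjusted p = 0.772, edgeR), and it turned to -0.68 without orange replicate 1. In that library the neural miRNAs (miR-124, miR-9, miR-219 and miR-137) summed to 685 CPM, mostly miR-124. Their sum was 19.8 and 22.2 CPM in the other orange libraries and 27.1 to 57.8 CPM in white muscle. miR-219 went the other way, with 0 counts in orange replicate 1 and its most, 19, in white replicate 1. The part of the neural miRNAs in the level of miR-29 was not tested.

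miR-31 varied more between pools of one strain than between strains. Its counts were 550, 33 and 71 in white and 58, 72 and 349 in orange replicates 1 to 3, or 109, 10.6 and 21.1 CPM in white and 13.7, 44.6 and 101 CPM in orange muscle. One library of each group stood far above the others, 10.3-fold over the lowest in white and 7.33-fold in orange muscle. The log2 difference was 0.17 (SE 1.04, 95% interval -2.27 to 2.62, adjusted p = 0.921, edgeR), an interval that leaves room for a large difference in either direction. Leaving out white replicate 1 gave 1.61, and leaving out orange replicate 3 gave -0.80. White replicate 1 was the library with the epithelial and sensory sum of 7513 CPM. In orange muscle that sum was highest in replicate 1, at 4810 CPM, where miR-31 was lowest. Orange replicate 3 had 2808 CPM. It held the highest sum of the gut miRNAs (miR-194, miR-215, miR-375 and miR-122, all 4 above 0), at 145 CPM. The other orange libraries had gut sums of 25.8 and 42.1 CPM. White muscle had 9.30 to 17.9 CPM, with the lowest in replicate 1. Whether either list bears on miR-31 was not tested.

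**Figure D3:**
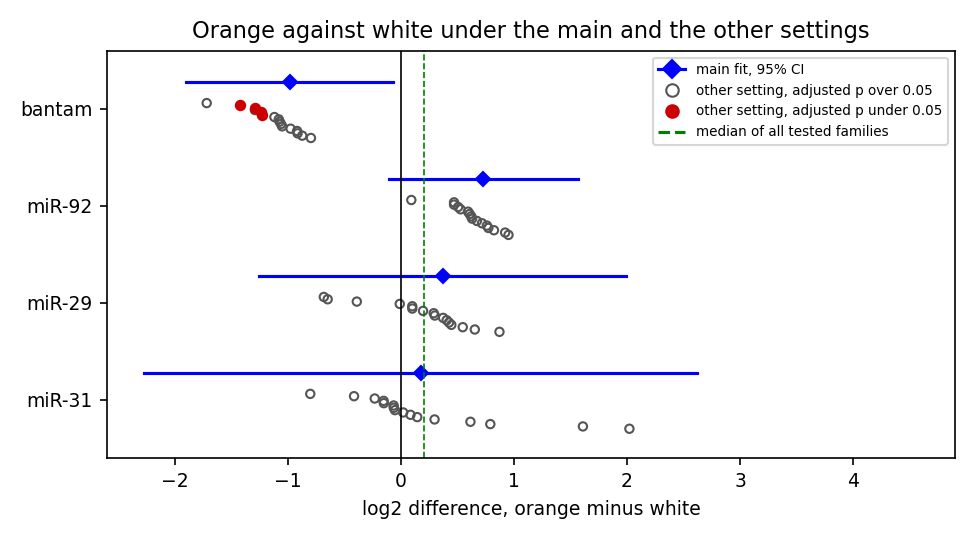
Log2 difference of each family, orange minus white: the diamond and line give the fit across all 142 families with its 95% interval, and the circles below it give the 16 other settings, filled where the adjusted p was under 0.05. The 4 filled circles belong to bantam, whose values all lie below 0. The dashed line marks the median family at 0.20.

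Of the 4 families, 0 passed by edgeR, against 13 of 142 families tested, or 9.15%, with 7 higher (4.93%) and 6 lower (4.23%) in orange muscle. At an unadjusted p under 0.05 there was 1, bantam, against 26.8% of the families tested, and bantam was also the 1 called by DESeq2, which called 33 of the 142 families, or 23.2%. Among their 92 profiles above 0, 55 passed the filter on low counts and 0 of them passed the test, as did 0 of all 634 profiles (0%). Unadjusted p-values under 0.05 were found in 5 of the 55 and in 131 of the 634, or 20.7%, and DESeq2 called 0 of the 55 and 41 of 645, or 6.36%. All 38 tested profiles of miR-92 had a log2 difference above 0, from 0.01 to 1.74, and all 3 of bantam had one below 0, but profiles of one family repeat reads and are not independent. Groups did not overlap in 17 of the 55, or 30.9%, against 33.6% of all profiles.

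The ratio of 2 miRNAs in one library is free of the scaling between libraries. White libraries held 1.38, 2.23 and 2.04 log2 units more bantam than miR-92. Orange libraries stood at -0.50, 1.11 and -0.47. Bantam thus had more counts than miR-92 in all 3 white libraries and in orange replicate 2, and miR-92 was ahead in orange replicates 1 and 3. The mean log2 ratio was 1.88 ± 0.447 in white and 0.05 ± 0.918 in orange muscle (SD, n = 3 each), a difference of -1.84 with groups that did not overlap (exact two-sided permutation p = 0.1, the smallest that 3 against 3 libraries allow, adjusted p = 0.6 over 6 pairs of families). In the other 5 pairs the groups overlapped, at exact permutation p-values of 0.4 to 0.8.

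Set against the muscle miRNAs, bantam was again lower in each orange library. In white replicates 1 to 3 it stood at 3.13%, 3.00% and 2.42% of the counts of miR-1, and the orange libraries had 1.78%, 2.14% and 1.74%. Relative to miR-133 the values were 2.48%, 2.03% and 1.55% in white and 0.883%, 1.20% and 0.903% in orange muscle. The log2 differences of the ratios were -0.59 and -1.01 (exact two-sided permutation p = 0.1 each, adjusted p = 0.4 over 8 ratios). These 2 were the pairs without overlap among 8 ratios of the members to miR-1 and miR-133, which were added after the values had been seen. For miR-92 the log2 differences were 1.24 against miR-1 and 0.83 against miR-133, with overlap and an exact permutation p of 0.2 each.

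**Figure D4:**
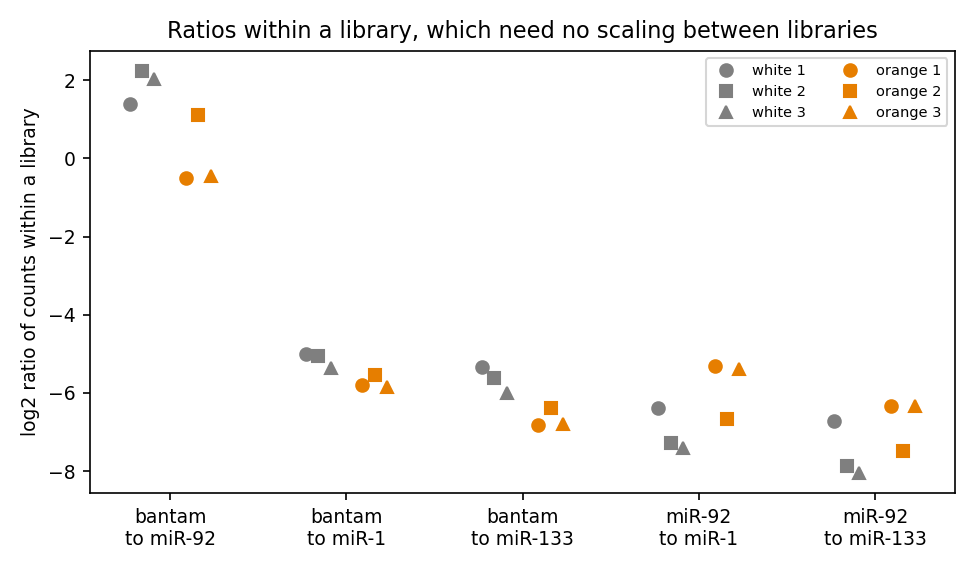
Log2 ratio of counts within each library for bantam to miR-92 and for both to the muscle miRNAs miR-1 and miR-133, with grey symbols for white and orange symbols for orange muscle. The 3 ratios with bantam on top show no overlap between groups, with bantam to miR-92 between 1.38 and 2.23 in white and between -0.50 and 1.11 in orange muscle.

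The many miR-92 names fell on different levels. The name tca-miR-92b-3p held 98.1% to 99.3% of the counts under lgi-miR-92 in each library, but letters did not sort the names by level, since other b names were far lower: sko-miR-92b had 6056 counts in all and the 29 names counted as abu-miR-92b had 96. The most abundant name with the letter a, tcf-miR-92a, had 5561 counts. It was at 21.2%, 14.5% and 14.7% of lgi-miR-92 in white replicates 1 to 3 and at 9.77%, 13.5% and 11.9% in orange replicates 1 to 3. Every white library lay above every orange one for this share.

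The log2 difference of that share was -0.51, and it was -0.50 for tur-miR-92-3p and -0.60 for bbe-miR-92a-3p, which follow nearly the same counts (exact two-sided permutation p = 0.1 each, adjusted p = 0.317 over 19 name ratios). Without white replicate 1 the difference of tcf-miR-92a was -0.33, and without both libraries numbered 1 it was -0.21. The name pca-miR-92c-3p behaved differently: it held 49.8%, 25.7% and 29.3% of lgi-miR-92 in white and 30.3%, 40.1% and 51.7% in orange replicates 1 to 3, with overlapping groups (exact permutation p = 0.5). Counts per name do not tell which of these names share reads.

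**Figure D5:**
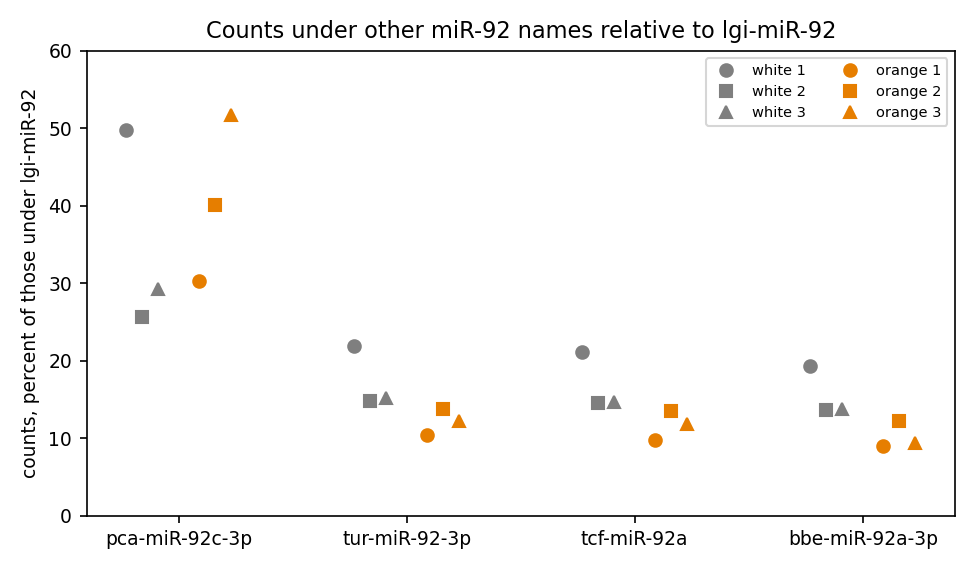
Counts under 4 miR-92 names as a percent of those under lgi-miR-92 in each library, with grey symbols for white and orange symbols for orange muscle. For tur-miR-92-3p, tcf-miR-92a and bbe-miR-92a-3p every white library lies above every orange one, while pca-miR-92c-3p ranges from 25.7% to 51.7% with overlap.

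The lesser names of the other families also varied in level. cte-bantam was at 0.213%, 0.285% and 0.270% of mle-bantam-3p in white and at 0.327%, 0.526% and 0.535% in orange replicates 1 to 3, which is 24 to 55 counts per library. The groups did not overlap (log2 difference 0.84, exact permutation p = 0.1, adjusted p = 0.317), and cte-bantam itself had a log2 difference of -0.10 in CPM (SE 0.589). For miR-29, the b names led by bbe-miR-29b-3p stood at 3.21% to 10.5% of cte-miR-29a with overlap. The name ssa-miR-29c-3p stood at 3.84% to 3.98% in white and 4.55% to 7.37% in orange muscle without overlap, at only 7 to 84 counts per library (exact permutation p = 0.1, adjusted p = 0.317). In miR-31, xtr-miR-31a ranged from 0 counts in white replicate 2 to 24.1% of cte-miR-31 in orange replicate 1. Over the 19 name ratios, groups did not overlap in 6, of which 1, cte-miR-92c, held 99.7% to 99.9% of the counts of lgi-miR-92. The 6 also include tcf-miR-92a, tur-miR-92-3p and bbe-miR-92a-3p, which follow nearly the same counts. No share over all names was computed for such ratios. In CPM, groups did not overlap in 33.6% of all profiles tested, so the 6 do not set these names apart.

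Of the relatives with the same seed, miR-72 and miR-235 closely repeated counts of the members. The nematode family miR-72, a relative of miR-31, had 551, 33 and 71 counts in white and 57, 72 and 349 in orange replicates 1 to 3 under str-miR-72-5p, within 1 count of cte-miR-31 in every library. The name ppc-miR-72 had exactly the counts of aca-miR-31-5p, and prd-miR-72-5p exactly those of lgi-miR-31, so the 2 families could not be told apart by their counts. The nematode relative of miR-92, miR-235, had 133, 34 and 24 counts in white and 82, 41 and 158 in orange muscle, within 3 counts of asu-miR-92-3p in each library. Of the 9 relatives listed for miR-92, only 2 were among the names analysed (miR-235 and miR-310, the latter with at most 4 counts in a library). Of the 4 for bantam only 1 was (miR-81, with 1 count). Of the 4 for miR-29 only miR-285 was, with 17 names at 0. The remaining relatives had no name, so no count of them was possible. The vertebrate cluster partners miR-17, miR-18, miR-19 and miR-20 were not among the names analysed.

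A list of miRNAs tied to growth and cell death, mostly in Drosophila, also gave no call by edgeR. Its 11 members were bantam, miR-92, miR-2, miR-6, miR-8, miR-11, miR-13, miR-14, miR-34, miR-278 and let-7. Of these, miR-6, miR-11 and miR-13 had no name among those analysed, and the other 8 had counts. Of the 8, 7 could be tested and 0 passed by edgeR, against 9.15% of all families. Bantam and let-7 had an unadjusted p under 0.05 (26.8% of all families did), and bantam was the 1 called by DESeq2 (23.2% of all families were). Their log2 differences ran from -1.81 to 0.74 with a median of 0.39, against 0.20 over all 142 families, and 5 of 7 lay above 0. let-7, a timer of development, had the lowest adjusted p of the list (0.71, SE 0.230, adjusted p = 0.123). miR-14, which suppresses cell death in Drosophila, had 2 counts in white replicate 1 and 0 elsewhere.

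Patterns most like each member were sought by the root mean square difference between centred log2 levels over the 6 libraries, where 0 means an identical course. Bantam was closest to miR-216 at 0.183, then to the predicted miRNAs Contig410_14939 at 0.220 and Contig43_707 at 0.296, against a median of 1.09 over 141 families. miR-216 stood at 2755, 2960 and 2268 CPM in white and 1170, 2612 and 1285 CPM in orange replicates 1 to 3, so it shared the high value of orange replicate 2, and its log2 difference was -0.66 (adjusted p = 0.306, edgeR). miR-92 was closest to Contig1317_31844 and Contig438_17191, both at 0.107 and with identical levels in every library, and then to miR-34 at 0.355. miR-29 had no close match (miR-184 at 0.586), and miR-31 had none beyond the repeated counts of miR-72 at 0.009, the next being miR-235 at 0.846.

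In rank, bantam stood between Contig118_4651 (4362 CPM on average) and miR-99 (3289 CPM), and miR-92 stood between miR-87 (1884 CPM) and miR-263 (1769 CPM), whose ranges of 1500 to 2541 and 771 to 4315 CPM overlapped with its own. Within single libraries bantam ranged from rank 13 to 23, miR-92 from 16 to 26, miR-29 from 39 to 55 and miR-31 from 51 to 94. Among named families only, these ranges were 10 to 16, 11 to 19, 30 to 38 and 36 to 50. The ranks that follow are again over all families. Bantam ranked above miR-92 in all 3 white libraries, at 13, 13 and 14 against 23, 25 and 26, and below it in orange replicates 1 and 3, at 20 and 23 against 18 and 16. miR-29 lay between miR-315 and miR-183, at means of 152 and 146 CPM, and miR-31 between Contig179_7833 and miR-72, whose counts are its own.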

How the data were processed

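Per the labels, small RNAs of pooled adductor muscles were sequenced, and the authors deposited whole-number counts per miRNA name without normalization. Trimming, alignment and the reference set are not given in the sources used here. The counts repeat reads under many names. A second deposited table of the same libraries on a scaled unit was not used, nor were its 9 further columns. No sequence of these miRNAs was at hand, so none is printed.

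The most abundant entry of each family was tested under R 4.3.3 by the quasi-likelihood test of edgeR 4.0.16 (robust glmQLFit and glmQLFTest) after filterByExpr and TMM scaling, with Benjamini-Hochberg adjustment over 142 families, threshold 0.05. SE is the log2 difference over the square root of F. Profiles used the library sizes and TMM factors of the family table. DESeq2 1.42.0 was an alternative. Ratios took a pseudocount of 0.5 and an exact permutation test (SciPy 1.17.1). Patterns were compared as log2(CPM + 1). Count floors cover counting error only. Scripts were tested on simulated counts. Members and lists were chosen with earlier results of these data known. Named were all members, some of the leading profiles of the arm and letter classes, up to 3 of the most similar families and the neighbours in rank. Lists of muscle, neural, epithelial and sensory, gut, ciliated cell (miR-34, miR-449) and immune (miR-21, miR-155, miR-223) miRNAs served as markers. The ciliated list summed to 128 to 149 CPM in white and 178 to 274 CPM in orange muscle, and the immune list to at most 0.946 CPM in a library.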

Additional observations from a re-analysis of the deposited data

How the results depend on the processing

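The 16 other settings of the family fit changed 1 choice each, except that the DESeq2 test also brings its own size factors and dispersion model. The number of families called was 13, with 7 higher and 6 lower. It was 29 with no filter, 20 with library totals and 33 by DESeq2, and 0 to 20 without 1 library: 0 when white replicate 2 or 3 was left out, and 20 when white replicate 1 was. The split of higher to lower was 3 to 6 with DESeq2 size factors, 8 to 12 with library totals and 2 to 9 with upper-quartile factors, and the median family moved from 0.20 to -0.07, -0.01 and -0.39. Bantam passed with no filter (-1.23), library totals (-1.24) and DESeq2 (-1.29). It ran from -1.42 to -0.80 without 1 library and from -1.72 to -0.92 over the remaining settings. miR-29 turned to -0.39 with upper-quartile factors, -0.0114 with the replicate block and -0.65 without both libraries numbered 1, and ran from -0.68 to 0.87 without 1 library. miR-31 turned to -0.15 with no filter, -0.0653 with DESeq2 size factors, -0.23 with library totals, -0.0643 by DESeq2 and -0.0534 with sums over distinct profiles. It ran from -0.80 to 1.61 without 1 library, and was 2.02 (adjusted p = 0.0931) without both libraries numbered 1. The cause was not tested.

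Of all profiles, 0 were called, against 4 with their own TMM factors, 11 with DESeq2 size factors, 72 with library totals, 41 by DESeq2, 62 with the replicate block and 78 without both libraries numbered 1. Without 1 library there were 0 to 69, with 69 without white replicate 1 and 1 without orange replicate 1. Member profiles were called in 3 of these 13 settings: mle-bantam-3p with library totals, abu-miR-92b and xla-miR-92b-3p (higher in orange) without white replicate 1, and lva-miR-92b-3p, pmi-miR-92b-3p and spu-miR-92c (higher) without both libraries numbered 1.

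The ratio of bantam to miR-92 differed between the groups by -2.37 to -1.56 on the log2 scale in its 10 settings. Without both libraries numbered 1, miR-92 to miR-31 turned to -1.21, miR-29 to miR-1 to -0.19 and miR-29 to miR-133 to -0.48. Without 1 library, the ranges that crossed 0 were -0.49 to 1.02 for miR-92 to miR-31, -1.92 to 0.35 for miR-29 to miR-31, -0.42 to 1.33 for miR-29 to miR-1, -0.79 to 0.86 for miR-29 to miR-133, -0.36 to 1.64 for miR-31 to miR-133, -0.80 to 0.0821 for bbe-miR-29b-3p and -0.71 to 1.87 for bfl-miR-29b-5p, the last 2 relative to cte-miR-29a.

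The replicate numbers were not taken to pair the samples: deviations of same-numbered libraries correlated at 0.19, 0.00 and 0.16. White replicates 2 and 3 each correlated better with another number than with their own. With the replicate block, 12 families were called, and bantam had -1.07 (adjusted p = 0.0612), miR-92 0.76 and miR-31 0.79. miR-31 had 33 to 72 counts in 4 of 6 libraries, the lowest of the 4 families.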
